A study of Mus musculus with 22 samples.

Results

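RNA of the nucleus accumbens was compared between morphine-treated mice that drank nonabsorbable antibiotics and morphine-treated mice that drank water. All libraries whose titles name antibiotics and morphine (5) were set against all whose titles name water and morphine (5). These are 10 of the 22 libraries of the series. The table lists 24061 genes, of which 14564 had enough counts to be tested. The mice were male C57BL/6J, 7 to 9 weeks old, from Jackson Laboratories, conventionally raised and group-housed in a specific pathogen-free colony. Both groups received morphine at 20 mg/kg/day for 7 days. The labels give the antibiotic group a depleted and the water group a normal microbiome, and the composition of the antibiotic mixture is not given in the sources used here. The other 12 libraries are the saline-treated counterparts, 6 with antibiotics and 6 with water, which share no library with the morphine comparison. Library titles carry a number but do not say whether each library is 1 animal or a pool, so a p-value covers only the spread between libraries, which may be technical.

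The nucleus accumbens is the ventral part of the striatum and is known for its role in reward and in responses to opioids. Its main neurons are GABA-releasing projection neurons that carry D1 or D2 dopamine receptors, set among interneurons, astrocytes, oligodendrocytes, microglia and vessels. Glucocorticoids enter the brain from the blood and act through the glucocorticoid receptor, a transcription factor that leaves its chaperones when it binds hormone and raises genes such as Fkbp5 and Sgk1. Microglia are the resident macrophages of the brain, and oligodendrocytes wrap axons in myelin. In bulk RNA, fewer cells of a type and less RNA per cell cannot be told apart.

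Counts in genes ran from 9490687 to 15330947 per library with water and from 11123545 to 13701331 with antibiotics. Markers of striatal projection neurons were present in every library. The enkephalin precursor Penk measured 838 to 1367 CPM (counts relative to all reads in genes of the library, scaled by the trimmed mean of M-values) with water and 1086 to 1293 CPM with antibiotics. Reference transcripts lay close together, with Gapdh at 1163 ± 29.0 CPM with water and 1201 ± 96.6 CPM with antibiotics (SD, n = 5 each). None of the 6 library measures examined differed by an exact permutation test. The smallest adjusted p was 0.238, for the share of counts outside genes (11.3% with antibiotics and 10.3% with water) and for the number of genes detected. Without water library 4 the number of genes detected was higher with antibiotics (adjusted p 0.0476, exact permutation test).

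The amount of RNA from cortical or septal neurons, which border the accumbens, varied between libraries and was not evenly spread over the groups. Slc17a7, the vesicular glutamate transporter of cortical neurons, measured 6.94, 124, 986, 69.5 and 3.48 CPM in water libraries 2 to 6. With antibiotics it measured 851, 575, 133, 563 and 267 CPM in libraries 1 to 5. Water library 4 was thus the highest of all, and the other 4 water libraries all lay below the 5 antibiotic libraries. The summed level of 20 cortical and septal markers was 286 to 438 CPM in those 4 water libraries, 1505 CPM in water library 4 and 466 to 1261 CPM with antibiotics. None of the 20 passed the test between groups by edgeR or limma-voom, 1 was lower by DESeq2, and 1 was lower at an unadjusted p under 0.05 by edgeR. Without water library 4 there were 3 higher and 1 lower, and 1 was lower without water library 5 or antibiotic library 3. On the first principal component, which held 30.8% of the variance, water library 4 lay at 22.1 among the antibiotic libraries (0.19 to 22.9) and the other water libraries at −21.7 to −10.2. A fit with the mean log2 CPM of these markers as a covariate is therefore given beside the main gene groups below.

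Expression differed widely between the groups, by mostly small amounts. At an adjusted p under 0.05 (edgeR's quasi-likelihood test, Benjamini-Hochberg), 2621 of 14564 genes (18.0%) differed, 1226 higher (8.42%) and 1395 lower (9.58%) with antibiotics. The median size of these changes was 0.32 on the log2 scale, and 67 genes were at least 2-fold higher and 31 at least 2-fold lower. The median log2 change of all genes tested was 0.00084. For 1905 genes (13.1%) the 5 libraries of one group all lay beyond the 5 of the other, 912 of them higher (6.26%) and 993 lower (6.82%). Tested against a change of 1.2-fold in place of 0, 277 genes passed. Without water library 4 the count was 2748, of which 2242 were among the 2621. Except where stated, each gene described below as higher or lower kept its call in all 10 fits that left out 1 library, and in every other setting that tested it apart from the replicate block and the 1.2-fold test. The list counts below are to be read beside the shares of all genes tested that passed (18.0%), were higher (8.42%) or were lower (9.58%).

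Most of the listed targets of the glucocorticoid receptor were higher with antibiotics. This list, like the others below, was made with earlier results of these data known. Of 26 tested genes of this list, 20 were higher and 0 were lower, and their median log2 change was 0.52. Plin4, which coats lipid droplets, measured 2.31, 4.26, 4.82, 4.15 and 5.13 CPM in water libraries 2 to 6 and 51.4, 47.6, 59.7, 66.7 and 55.8 CPM in antibiotic libraries 1 to 5. The lowest antibiotic library was far above the highest water library, and the fold change was 13.3 (log2 3.74, adjusted p 1.43e-05). Hif3a, a relative of the hypoxia-inducible factors, measured 4.42, 5.09, 6.58, 6.26 and 4.80 CPM with water and 24.96, 21.6, 29.2, 21.9 and 15.9 CPM with antibiotics. Again the groups did not overlap, and Hif3a was 4.14-fold higher (adjusted p 4.65e-06).

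Fkbp5, a co-chaperone that lowers the hormone affinity of the receptor and is itself raised by it, measured 55.9, 66.3, 55.2, 71.2 and 61.3 CPM with water. With antibiotics it measured 140, 108, 163, 142 and 116 CPM, so every antibiotic library lay above every water library. The log2 difference was 1.11 ± 0.112 (SE), a 2.16-fold change with an adjusted p of 2.26e-06. Sgk1, a kinase that regulates ion channels and transporters, measured 74.6, 75.4, 69.8, 74.1 and 67.5 CPM with water and 145, 221, 154, 105 and 111 CPM with antibiotics. Its water libraries were tightly grouped while the antibiotic libraries spread widely, all of them above the water libraries (log2 1.02 ± 0.184, adjusted p 0.000757). Zbtb16, a zinc finger repressor, rose from 9.14 ± 2.25 to 28.0 ± 6.13 CPM (SD, n = 5 each, adjusted p 0.00379). In none of these 3 genes did the groups overlap. Rasd1, a small G protein first described as induced by dexamethasone, rose from 7.36 ± 1.22 to 18.3 ± 4.88 CPM (adjusted p 0.000247). Arrdc2, an arrestin family protein, and Map3k6, a stress kinase, were 2.79-fold and 2.42-fold higher (adjusted p 1.89e-06 and 2.26e-06).

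Smaller rises were seen in Klf9, a Krüppel-like transcription factor, which measured 147 to 191 CPM with water and 213 to 258 CPM with antibiotics (1.42-fold, adjusted p 0.000357). Fam107a, an actin-associated protein, was 1.30-fold higher, with 363 to 434 CPM against 488 to 548 CPM (adjusted p 0.00063). Pdk4, the kinase that holds pyruvate out of the mitochondrial citric acid cycle, was 1.44-fold higher, and its groups touched: the highest water library had 15.7 CPM and the lowest antibiotic library 15.6 CPM. Tsc22d3, which encodes the anti-inflammatory protein GILZ, was 1.39-fold higher (56.1 to 62.9 CPM against 71.5 to 94.4 CPM, adjusted p 0.0166), and its adjusted p was 0.0508 with the cortical marker score as covariate. The calls of Mt1, Errfi1, Tsc22d4 and Gjb6 were each lost in 5 to 8 of the 10 fits that left out 1 library, with adjusted p up to 0.101, 0.114, 0.0942 and 0.0784. All 4 were lost without water library 5 and without antibiotic library 3 or 4. The 6 that did not pass included Cebpd at a log2 change of 0.57 (adjusted p 0.0969) and Angptl4 at −0.67 (adjusted p 0.0682). Angptl4 was called lower without water library 4 or antibiotic library 2. The list count was 16 to 20 when 1 library was left out and 18 with the cortical marker covariate.

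**Figure D1:**
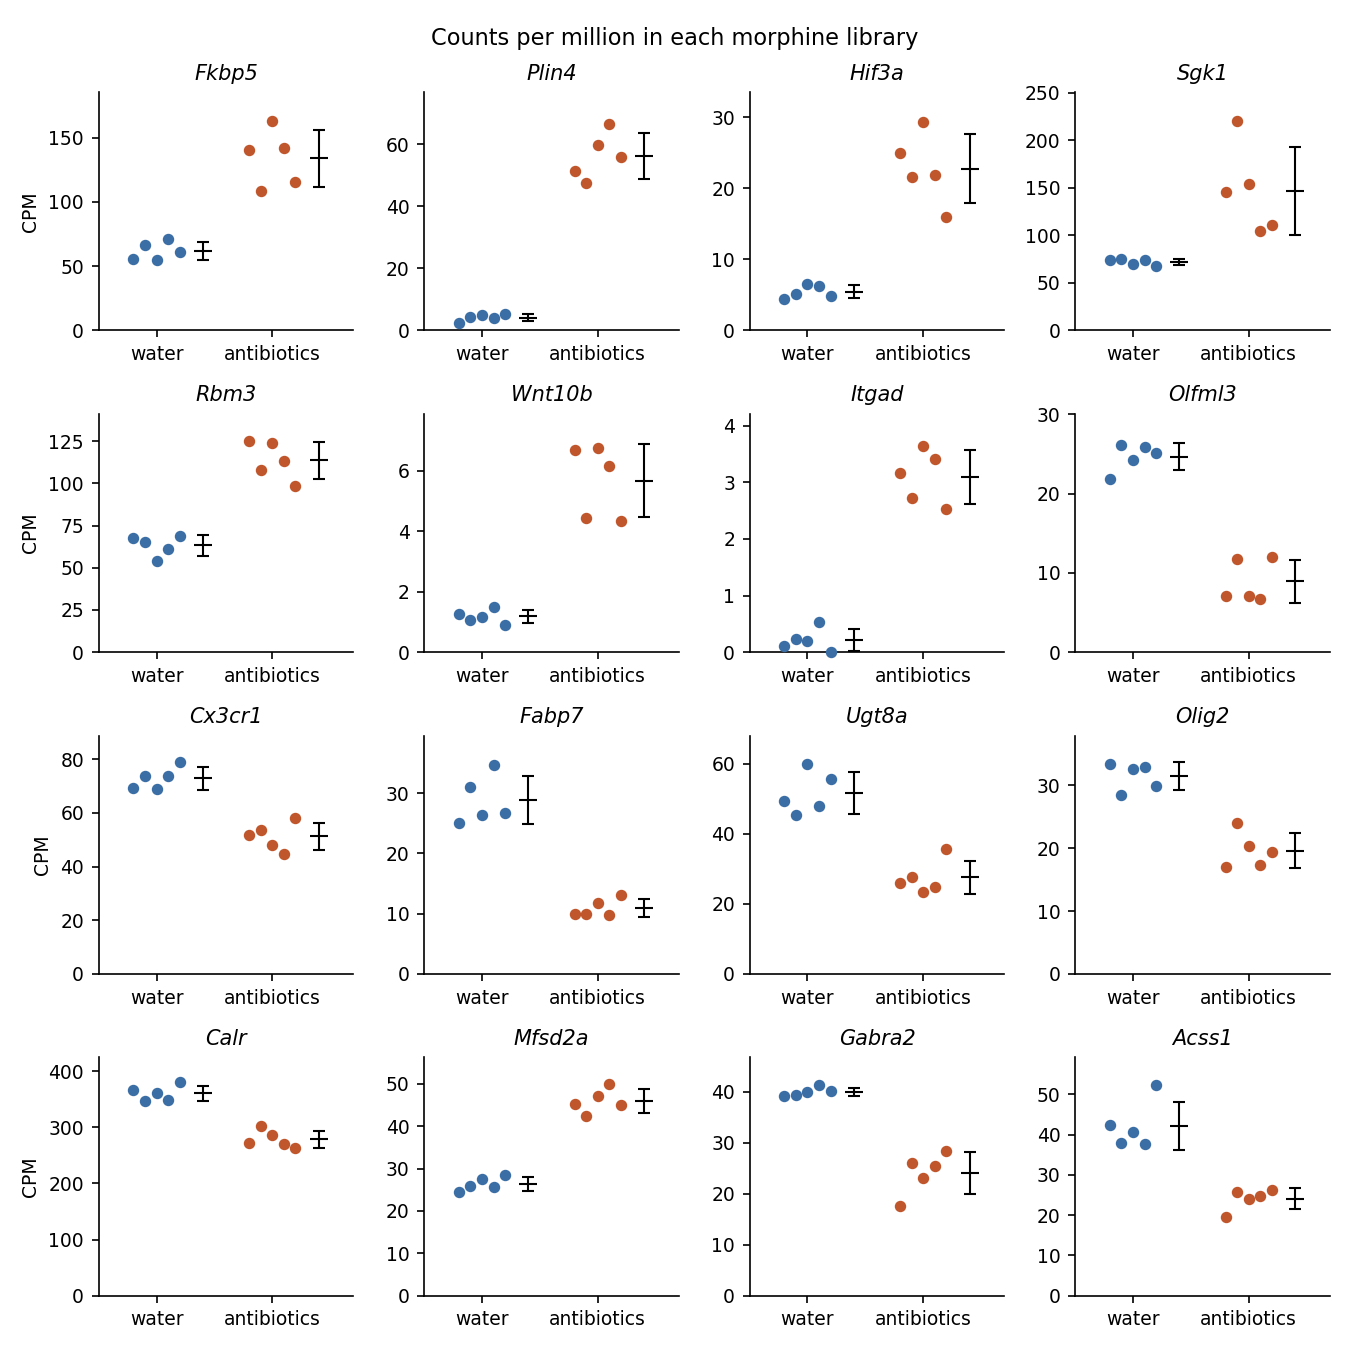
CPM (vertical axes, from 0) of 16 genes in each of the 5 water and 5 antibiotic libraries of the morphine-treated mice, 1 point per library, with the mean and SD of each group beside the points. In the Fkbp5 panel the water libraries lie between 55.2 and 71.2 CPM and the antibiotic libraries between 108 and 163 CPM.

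The promoters of these genes were searched for the palindromic glucocorticoid response element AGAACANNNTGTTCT on both strands of the 250 bases before each RefSeq start site (build GRCm38.p6). Of 22 list genes with a promoter in the table only Sgk1 held it, as did 3 of 27025 genes in all (0.0111%). The match is shown because Sgk1 is among the large changes of the list, at chr10:21993681-21993735, plus strand, with the element in capitals.
Sgk1: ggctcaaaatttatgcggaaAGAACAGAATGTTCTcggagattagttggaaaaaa
The motifs searched here and below were chosen after the expression values were seen. A match describes the letters in this window and is no evidence of binding.

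The receptor gene itself did not pass the test. Nr3c1, the glucocorticoid receptor, measured 89.5 ± 5.66 CPM with water and 84.7 ± 4.27 CPM with antibiotics (log2 −0.08 ± 0.0514, adjusted p 0.294). Nr3c2, the mineralocorticoid receptor, measured 55.8 ± 4.60 and 54.3 ± 3.27 CPM (adjusted p 0.758). Of 8 genes for receptors, chaperones and the hormone-converting enzyme Hsd11b1, 2 were lower. These were Fkbp4, the co-chaperone that competes with Fkbp5 on the receptor complex, and Stip1, which hands clients from Hsp70 to Hsp90. Fkbp4 measured 150, 135, 140, 126 and 145 CPM with water and 108, 113, 112, 119 and 121 CPM with antibiotics, so the groups did not overlap (0.823-fold, adjusted p 0.00281). Stip1 measured 179 to 217 CPM with water and 161 to 173 CPM with antibiotics (adjusted p 0.0108).

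Some heat shock and endoplasmic reticulum chaperones were lower with antibiotics. Of 20 genes tested, 0 were higher and 8 lower, with a median log2 change of −0.17, and the summed level was 3223 to 3614 CPM with water and 2889 to 2987 CPM with antibiotics. Hsph1, an exchange factor of Hsp70, measured 381, 382, 388, 422 and 399 CPM with water and 249, 314, 250, 270 and 274 CPM with antibiotics. The gap between the groups was wider than the range of the water libraries, and Hsph1 was 0.688-fold (adjusted p 1.73e-05). Calreticulin (Calr), a calcium-binding chaperone of the endoplasmic reticulum, measured 347 to 380 CPM with water and 263 to 301 CPM with antibiotics (0.773-fold, adjusted p 5.48e-05). Pdia6 and Pdia4, which rearrange disulfide bonds, were 0.765-fold and 0.761-fold (adjusted p 2.61e-05 and 0.00723). Hsp90b1, the Hsp90 of the endoplasmic reticulum, and Hspd1, the mitochondrial chaperonin, fell less, at 0.852-fold and 0.876-fold (adjusted p 0.00115 and 0.00734). Hspe1 and Xbp1 passed, but both lost the call without water library 2 or 6 or antibiotic library 1 or 3, and Hspe1 also without antibiotic library 2 or 4. Hspa5 did not pass (307 ± 28.7 against 270 ± 10.1 CPM, adjusted p 0.194), nor did Hspa8 (adjusted p 0.153). The count was 6 to 9 when 1 library was left out and 7 with the cortical marker covariate.

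The endoplasmic reticulum stress element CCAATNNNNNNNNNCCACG, searched on both strands, was found in 5 of the 18 chaperone genes with a promoter in the table, against 35 of 27025 genes in all (0.130%). The 5 were Hspa5, Hsp90b1, Pdia6, Creld2 and Calr, of which Hsp90b1, Pdia6 and Calr were lower and Hspa5 and Creld2 did not pass. The heat shock element (GAANNTTCNNGAA or TTCNNGAANNTTC) was found in Hspd1 and Hspe1, which face each other across 1 promoter, and in 139 genes in all (0.514%). The matches in genes that were lower are given below on the strand of the gene, with each match in capitals. Hsp90b1 lies at chr10:86705618-86705676 and chr10:86705513-86705571 (both minus strand), Pdia6 at chr12:17266471-17266529 (plus), Calr at chr8:84847055-84847113 (minus) and Hspd1 at chr1:55088039-55088096 (minus). In Hspd1 the capitals cover 2 overlapping matches.
Hsp90b1, upstream: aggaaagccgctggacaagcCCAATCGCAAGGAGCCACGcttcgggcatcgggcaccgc
Hsp90b1, downstream: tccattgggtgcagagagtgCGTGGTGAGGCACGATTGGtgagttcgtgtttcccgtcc
Pdia6: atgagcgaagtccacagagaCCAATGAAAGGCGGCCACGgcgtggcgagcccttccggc
Calr: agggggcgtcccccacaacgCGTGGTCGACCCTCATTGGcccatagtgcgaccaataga
Hspd1: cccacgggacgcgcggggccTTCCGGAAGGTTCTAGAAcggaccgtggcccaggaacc

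The RNA-binding proteins that cells raise in the cold were both higher. Rbm3 measured 67.4, 65.3, 53.8, 61.1 and 68.7 CPM with water and 125, 108, 124, 113 and 98.6 CPM with antibiotics (log2 0.85 ± 0.0932, adjusted p 2.76e-06). Cirbp measured 97.6, 94.9, 66.0, 77.2 and 94.9 CPM with water and 148, 130, 163, 138 and 123 CPM with antibiotics (1.63-fold, adjusted p 0.000192). In both genes every antibiotic library lay above every water library. Body temperature is not given in the labels.

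Several genes of the circadian clock were higher, among them some but not all of its repressors. Of 19 clock genes, 6 were higher and 0 lower, with a median log2 change of 0.16, and with the cortical marker covariate 9 were higher and 1 lower. Cry2, a cryptochrome that represses the CLOCK complex, measured 171, 197, 189, 188 and 177 CPM with water and 251, 241, 224, 245 and 220 CPM with antibiotics (1.28-fold, adjusted p 1.99e-05). Its partner Cry1 rose from 37.6 ± 4.86 to 53.2 ± 5.01 CPM (adjusted p 0.000539). Ciart, a further repressor, measured 23.6 to 28.5 CPM with water and 33.6 to 40.2 CPM with antibiotics (adjusted p 0.000685). Bhlhe40 was 1.34-fold higher (adjusted p 0.00896). Per1, which also belongs to the glucocorticoid list, measured 125 to 200 CPM with water and 195 to 262 CPM with antibiotics, so its groups overlapped (1.42-fold, adjusted p 0.00129). Per3 passed at an adjusted p of 0.0455 and did so in only 2 of the 10 fits that left out 1 library, those without water library 5 or antibiotic library 1. The repressors Per2, Nr1d1, Nr1d2, Bhlhe41 and Nfil3 did not pass in the main fit. The activators Clock and Arntl did not pass, nor did the outputs Dbp (log2 −0.17, adjusted p 0.345) and Tef (log2 0.12, adjusted p 0.155). The hour of dissection is not given in the labels, which state lights on at 7 AM and off at 7 PM.

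The E-box CACGTG, the site of the CLOCK complex and of other factors, was searched on both strands and is a palindrome. It occurred in 5 of 17 clock genes with a promoter in the table (Per1, Cry1, Tef, Ciart and Bhlhe41) and in 1854 of 27025 genes in all (6.86%). Of these 5, Per1, Cry1 and Ciart were higher while Tef and Bhlhe41 did not pass. The matches of the genes that were higher are printed with the E-box in capitals, at chr11:69098763-69098808 (Per1, plus strand), chr10:85185089-85185134 (Cry1, minus), chr3:95882319-95882364 and chr3:95882247-95882306 (Ciart, minus).
Per1: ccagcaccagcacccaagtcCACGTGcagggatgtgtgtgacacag
Cry1: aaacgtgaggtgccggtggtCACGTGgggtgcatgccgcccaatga
Ciart, upstream: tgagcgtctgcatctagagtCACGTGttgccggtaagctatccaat
Ciart, downstream: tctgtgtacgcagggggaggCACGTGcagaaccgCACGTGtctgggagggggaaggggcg

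Some scarce transcripts changed several-fold. Itgad, the integrin alpha D chain of leukocytes, had 14 counts in the 5 water libraries together, 0 of them in water library 6, and 195 in the 5 antibiotic libraries. In CPM it measured 0.105, 0.224, 0.195, 0.528 and 0 with water and 3.17, 2.71, 3.64, 3.42 and 2.53 with antibiotics (log2 3.75 ± 0.410, adjusted p 2.26e-06). No water library had more than 7 counts, and Itgad passed the count filter only through the antibiotic and morphine libraries, where it is high. Its p-value is therefore no independent support. Wnt10b, a secreted Wnt ligand, measured 1.26, 1.05, 1.17, 1.51 and 0.911 CPM with water and 6.69, 4.42, 6.74, 6.14 and 4.33 CPM with antibiotics. That is 75 against 355 counts in all, a 4.75-fold change (adjusted p 3.25e-07), with no overlap. Few other Wnt genes passed: of 26 in the list 1 was higher, Wnt10b itself, and 2 without water library 4. The 2 lower genes, Fzd9 and Nkd1, both lost the call without antibiotic library 1, and 1 was lower without water library 3 or 6 or antibiotic library 3 or 4. Ccl17, a chemokine, had 35 and 167 counts (4.83-fold, adjusted p 3.10e-05). Gabrr2, a rho subunit of the GABA-A receptors, had 54 and 254 counts (4.66-fold, adjusted p 0.000222).

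Other genes with small p-values or large changes were Pnpla2, Adipor2, Kdsr, Prodh and Ptgds. Pnpla2, the lipase that opens the breakdown of stored fat, measured 21.6, 20.9, 20.3, 18.1 and 17.7 CPM with water and 33.3, 32.3, 39.9, 34.8 and 28.4 CPM with antibiotics (1.71-fold, adjusted p 1.73e-05). Adipor2, an adiponectin receptor, measured 75.9 to 88.2 CPM with water and 115 to 131 CPM with antibiotics (1.55-fold, adjusted p 4.65e-06). Kdsr, an enzyme of sphingolipid synthesis, measured 30.4 to 33.7 against 43.3 to 49.4 CPM (1.46-fold, adjusted p 4.65e-06). In each of these 3 genes the lowest antibiotic library exceeded the highest water library. Prodh, the mitochondrial enzyme that starts proline breakdown, was 1.59-fold higher (27.1 ± 2.70 against 43.3 ± 2.05 CPM, adjusted p 9.15e-06). Ptgds, the prostaglandin D synthase of oligodendrocytes and meninges, measured 149 to 207 CPM with water and 277 to 592 CPM with antibiotics (2.17-fold, adjusted p 0.0117).

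Microglial genes were lower with antibiotics. Of 23 markers, 16 were lower and 0 higher, 23 lay below 0, and the median log2 change was −0.39. Their summed level was 855 to 959 CPM with water and 649 to 778 CPM with antibiotics. Olfml3, a secreted matrix protein typical of microglia, measured 21.9, 26.1, 24.3, 25.9 and 25.1 CPM with water and 7.15, 11.8, 7.13, 6.68 and 12.05 CPM with antibiotics (0.365-fold, adjusted p 1.89e-06). Every antibiotic library had 12.05 CPM or less while no water library fell below 21.9 CPM. P2ry13, an ADP receptor, measured 12.4 to 16.1 CPM with water and 7.33 to 9.96 CPM with antibiotics (0.566-fold, adjusted p 1.76e-05). Cx3cr1, the fractalkine receptor through which neurons signal to microglia, measured 68.8 to 79.1 CPM against 44.7 to 58.0 CPM (0.703-fold, adjusted p 3.25e-05).

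The size of the fall differed widely between the markers. Selplg and P2ry12 were 0.705-fold and 0.740-fold (adjusted p 0.000252 and 0.00193), and Aif1, which encodes IBA1, was 0.631-fold (adjusted p 0.00122). Csf1r, whose signal keeps microglia alive, measured 130 to 148 CPM with water and 117 to 126 CPM with antibiotics, a 0.876-fold change without overlap (adjusted p 0.00466). Among the complement C1q chains, C1qa and C1qb were 0.755-fold and 0.802-fold (adjusted p 0.00106 and 0.00654) while C1qc was at 52.9 ± 3.94 and 51.2 ± 3.43 CPM and did not pass (adjusted p 0.703). Tmem119 and Trem2 passed, but both lost the call without antibiotic library 1, 3 or 4, and Trem2 also without water library 2, 3 or 6. The count was 14 to 19 when 1 library was left out and 15 with the cortical marker covariate.

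Few other immune genes passed the test. Of 17 leukocyte genes only 7 had enough counts to test, and genes of T cells, neutrophils and monocytes were almost unread: Cd3e had 4 counts over the 10 libraries, S100a8 had 5, Ccr2 had 8 and Ly6c2 had 0. Of the 7, Itgad was higher, but it passed the count filter only through the group where it is high. Itgal was lower, with an adjusted p of 0.0211, a call that was lost without water library 5 or antibiotic library 3 or 5. In the complement list of 13 genes, C4b was higher (35.0 ± 4.20 against 50.4 ± 6.13 CPM, adjusted p 0.00638), C2 was higher but lost its call without water library 4 or 5 or antibiotic library 1 or 3, and the 3 lower genes were C1qa, C1qb and Itgam. Of 13 innate sensors Tlr7 alone passed (2.29 ± 0.503 against 3.61 ± 0.543 CPM, adjusted p 0.00829). Cd180, a toll-like receptor relative of myeloid and B cells that is in no list, fell from 221 to 84 counts (0.383-fold, adjusted p 7.96e-05). Of 18 interferon and class I antigen presentation genes, 2 were lower, among them Isg15 (124 against 55 counts, 0.445-fold, adjusted p 0.00275).

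**Figure D2:**
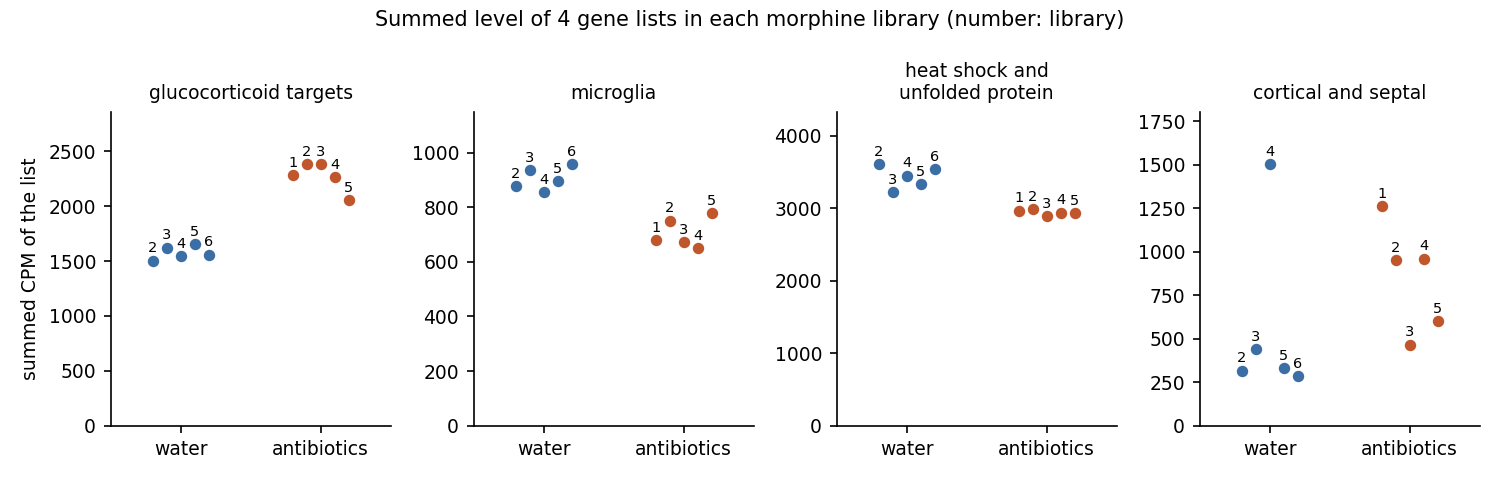
Summed CPM (vertical axes, from 0) of the tested members of the glucocorticoid, microglial, chaperone and cortical and septal lists in each library of the morphine-treated mice, numbered by library. The first 3 lists separate the groups, while in the last water library 4 lies above all others.

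Many genes of oligodendrocytes were lower. Of 24 myelin genes, 11 were lower and 2 higher, with a median log2 change of −0.24. Their summed level overlapped between the groups, at 6686 to 7810 CPM with water and 6700 to 7617 CPM with antibiotics. Gjb1, a connexin of oligodendrocyte gap junctions, measured 14.2 to 17.8 CPM with water and 7.30 to 10.8 CPM with antibiotics (0.530-fold, adjusted p 4.65e-06). Ugt8a, whose enzyme forms galactosylceramide, a major myelin lipid, measured 45.4 to 60.1 CPM against 23.5 to 35.6 CPM (0.534-fold, adjusted p 2.18e-06). In both genes the groups were fully apart. Fa2h and Gal3st1, which act before and after Ugt8a in the making of myelin lipids, were 0.777-fold and 0.792-fold (adjusted p 0.0114 and 0.00828).

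The transferrin gene Trf was 0.686-fold (394, 327, 377, 365 and 370 CPM against 233, 286, 243, 231 and 263 CPM, adjusted p 7.57e-05), and the myelin-associated glycoprotein Mag was 0.786-fold (adjusted p 0.00276). Mbp, the myelin basic protein, did not pass (2297 ± 169.6 and 2428 ± 139.8 CPM, adjusted p 0.319). Apod, a lipid-binding apolipoprotein, went the other way, from 128 to 152 CPM with water to 164 to 292 CPM with antibiotics (1.60-fold, adjusted p 0.00129). Opalin and Sox10 lost the call without water library 6 or antibiotic library 1, and Opalin also without antibiotic library 4. Tspan2, the other higher gene, lost it without water library 2, 3 or 5 or antibiotic library 1, 3 or 5. The lower count was 9 to 12 when 1 library was left out and 10 with the cortical marker covariate.

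Of 16 genes of oligodendrocyte precursors and newly formed oligodendrocytes, 7 were lower and 1 higher, with a median log2 change of −0.24. Olig2, a transcription factor of the whole lineage, measured 33.5, 28.4, 32.6, 33.0 and 30.0 CPM with water and 17.1, 24.0, 20.3, 17.3 and 19.5 CPM with antibiotics (0.625-fold, adjusted p 9.15e-06). Gpr17, a receptor of maturing precursors, measured 76.8 to 91.7 CPM against 54.9 to 63.8 CPM (0.729-fold, adjusted p 6.31e-05). Ptprz1 and the proteoglycan Cspg4 (NG2) were 0.783-fold and 0.766-fold (adjusted p 0.000214 and 0.000428). In these 4 genes the groups did not overlap. The 1 higher gene, Vcan, kept its call in only 2 of the 10 fits, those without water library 4 or 5.

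Of 20 genes of progenitors and immature neurons, 4 were lower and 0 higher. The 4 are 20% of the list, while 18.0% of all genes tested passed and 9.58% were lower. Fabp7, the brain lipid-binding protein of radial glia and astrocytes, measured 25.04, 31.0, 26.4, 34.7 and 26.7 CPM with water and 9.95, 9.92, 11.7, 9.71 and 13.1 CPM with antibiotics. No antibiotic library exceeded 13.1 CPM and no water library fell below 25.04 CPM, and the log2 change was −1.40 ± 0.120 (adjusted p 3.25e-07). The tubulin Tubb2b measured 148 to 165 CPM with water and 77.2 to 115 CPM with antibiotics (0.596-fold, adjusted p 2.26e-06). Nes and Dlx6os1 were 0.719-fold and 0.768-fold (adjusted p 0.0118 and 0.0108). Dcx, Sox11 and the division marker Mki67 did not pass.

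Of 20 astrocyte genes, 7 were lower and 1 higher, with a median log2 change of −0.12. Aqp4, the water channel of astrocyte endfeet, measured 66.1, 63.8, 72.8, 69.2 and 75.9 CPM with water and 50.7, 43.4, 50.6, 46.3 and 61.0 CPM with antibiotics (0.725-fold, adjusted p 0.00053). Slc7a10, a transporter of serine and glycine, was 0.679-fold (adjusted p 0.000155) and S100b 0.749-fold (adjusted p 0.00333), both without overlap. Acsbg1 and Mlc1 were 0.795-fold and 0.813-fold. Gfap, the filament protein that rises in reactive astrocytes, did not pass (54.3 ± 5.36 against 51.1 ± 3.14 CPM, adjusted p 0.717). Gjb6, the higher gene, kept its call in only 2 of the 10 fits, those without water library 2 or antibiotic library 2. The lower genes Slc1a3 and Ntsr2 lost theirs without water library 2 or 6 or antibiotic library 1, 2 or 4, and Ntsr2 also without water library 3 or 5 or antibiotic library 3.

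Genes of vessels moved in both directions. Of 26 endothelial genes, 4 were higher and 7 lower, with a median log2 change of −0.03. Mfsd2a, the transporter of the blood-brain barrier for omega-3 fatty acids bound to lysophosphatidylcholine, measured 24.4, 25.9, 27.5, 25.6 and 28.6 CPM with water and 45.1, 42.5, 47.1, 49.9 and 45.0 CPM with antibiotics (1.74-fold, adjusted p 4.65e-06). Slc2a1, the glucose transporter of the barrier and a member of the glucocorticoid list, was 1.246-fold higher (adjusted p 0.00434), Abcg2 was 1.35-fold (adjusted p 0.00507) and Vwf 1.39-fold (adjusted p 0.0181). The thyroid hormone transporter Slco1c1 fell from 75.4 ± 6.24 to 56.0 ± 3.37 CPM (adjusted p 8.18e-05), and Flt1 and Cdh5 were 0.795-fold and 0.742-fold (adjusted p 0.000853 and 0.00393). Cldn5 and Pecam1 did not pass. Serpinh1, the collagen chaperone, measured 16.4, 18.2, 19.5, 20.7 and 17.8 CPM with water and 7.96, 10.5, 6.89, 10.3 and 11.2 CPM with antibiotics (0.506-fold, adjusted p 5.96e-06). It was 1 of 2 lower genes among 16 of fibroblasts and matrix, and the other, Col3a1, lost the call without water library 2, 3 or 6 or antibiotic library 1, 3 or 4.

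Few markers of the main accumbens neurons passed. Of 28 genes of striatal projection neurons, 0 were higher and 1 lower, the G protein subunit Gnal, which lost the call without water library 3, 5 or 6 or antibiotic library 1, 3 or 4. With the cortical marker covariate 3 of these genes were higher and 0 lower. Of 15 interneuron genes, 0 were higher and 0 lower at the adjusted threshold by edgeR, with 2 lower at an unadjusted p under 0.05, 2 lower by DESeq2, 0 by limma-voom, and 1 higher and 2 lower without water library 4. Oprm1, the mu-opioid receptor at which morphine acts, measured 7.997, 8.38, 4.43, 8.45 and 8.86 CPM with water and 4.79, 5.12, 6.26, 5.83 and 5.63 CPM with antibiotics. Water library 4 was the lowest of all 10 and the other water libraries lay above every antibiotic library, and the comparison did not pass (log2 −0.45 ± 0.232, adjusted p 0.183). Without water library 4 the log2 change was −0.61 and the adjusted p 0.0526. Of 22 immediate early genes, which neurons and other cells raise on stimulation, 2 were higher, Nr4a3 and Ier5, and neither was called without water library 2, 3 or 6 or antibiotic library 1, 2 or 4 or with the cortical marker covariate. Cortical marker RNA differed between the same libraries, as given above, and its part in the values of neuronal genes was not tested beyond the covariate.

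Receptor genes of the inhibitory and excitatory synapse were lower in part. Of 23 genes of GABA synapses, 4 were lower, and the count was 2 without water library 2, water library 6 or antibiotic library 4 and 7 without water library 4. The 4 are 17.4% of the list, while 18.0% of all genes tested passed and 9.58% were lower. Gabra2, the alpha-2 subunit of the GABA-A receptor, measured 39.1, 39.3, 40.0, 41.3 and 40.1 CPM with water and 17.5, 26.0, 23.1, 25.4 and 28.4 CPM with antibiotics (0.604-fold, adjusted p 2.90e-05). The water libraries were nearly equal, and no antibiotic library came near them. Gabrb1 was 0.755-fold (26.3 to 30.6 against 19.6 to 22.7 CPM, adjusted p 0.00116). Of 28 genes of glutamate receptors and their partners, 7 were lower and 1 higher, and 4 were lower without water library 5 and 3 with the cortical marker covariate. Grm3, a metabotropic glutamate receptor found on neurons and astrocytes, measured 95.8, 118, 104, 139 and 104 CPM with water and 65.4, 73.9, 63.7, 61.3 and 74.0 CPM with antibiotics (0.602-fold, adjusted p 0.000195). Shisa9, an auxiliary protein of AMPA receptors, was 0.699-fold (adjusted p 0.000266), and Grik5, a kainate receptor subunit, was 1.18-fold higher (adjusted p 0.0117).

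Some enzymes that use acetate and ketone bodies were lower. Of 12 tested genes for short-chain fatty acids and ketones, 4 were lower and 0 higher by edgeR, and 1 was higher by DESeq2, by limma-voom and without water library 5. Acss1, which activates acetate in mitochondria, measured 42.3, 37.9, 40.7, 37.6 and 52.2 CPM with water and 19.6, 25.8, 23.9, 24.8 and 26.1 CPM with antibiotics (0.572-fold, adjusted p 5.14e-06). Acss2, its counterpart in cytosol and nucleus, measured 39.4 to 49.2 against 30.9 to 37.7 CPM (0.763-fold, adjusted p 0.00631). Oxct1, an enzyme of ketone body use, measured 302 to 348 against 215 to 274 CPM (0.746-fold, adjusted p 3.52e-05). None of these 3 had overlapping groups. The other lower gene, Slc16a7, lost its call without water library 4 or antibiotic library 1, 3 or 4. The short-chain fatty acid receptors Ffar2 and Ffar3 had 7 and 28 counts over the 10 libraries and were not tested.

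Other metabolic groups showed small and mixed changes. Tufm, the elongation factor of mitochondrial translation, measured 54.8 to 60.0 CPM with water and 35.8 to 42.9 CPM with antibiotics (0.692-fold, adjusted p 2.76e-06). Of 25 genes of that list, 3 were lower, and 5 without antibiotic library 5. Of 73 nuclear genes of oxidative phosphorylation, 4 were higher and 5 lower, about 0 as a group (median log2 −0.02). Only Cox4i1 kept its call in all 10 fits without 1 library (1.11-fold, adjusted p 0.00773), and without antibiotic library 1 there were 1 higher and 1 lower. With the cortical marker covariate there were 1 higher and 3 lower. Of 71 ribosomal protein genes 2 were higher, which fell to 0 without water library 3 and rose to 11 with the cortical marker covariate. Of 23 genes of cholesterol and fatty acid synthesis, 2 were higher and 5 lower. The lower count was 3 without antibiotic library 1 or 3 and 11 with the cortical marker covariate. Dhcr7, the last enzyme of cholesterol synthesis, was 0.792-fold (adjusted p 0.000464) and Elovl6, a fatty acid elongase, 0.716-fold (adjusted p 0.000232), while Lss, lanosterol synthase, was 1.252-fold (adjusted p 0.00277).

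Of 24 lysosomal genes, 6 were lower and 0 higher by edgeR, and 7 were lower and 1 higher by DESeq2. Hexa, a subunit of beta-hexosaminidase, measured 65.2, 63.2, 65.9, 64.3 and 67.2 CPM with water and 40.2, 49.2, 39.1, 44.4 and 49.6 CPM with antibiotics (0.683-fold, adjusted p 7.84e-06). The protease genes Tpp1 and Ctsd were 0.826-fold and 0.882-fold (adjusted p 0.000352 and 0.00916). Of 23 antioxidant genes, 4 were higher and 4 lower. The selenoproteins Gpx4 and Selm were higher, by 0.20 and 0.26 on the log2 scale, and Sod2, Cat and Prdx2 were lower, at 0.856-fold, 0.849-fold and 0.875-fold. The higher antioxidant count was 2 without water library 2, water library 6 or antibiotic library 2.

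Genes of DNA repair and of RNA decay were higher in part. Xpc, which recognises damaged bases for nucleotide excision repair, measured 31.9, 34.5, 24.4, 36.1 and 26.9 CPM with water and 57.3, 48.2, 64.4, 53.4 and 46.8 CPM with antibiotics (1.76-fold, adjusted p 1.57e-05). Of 26 repair genes, 8 were higher and 0 lower. The count was 5 without water library 2 or 3 or antibiotic library 1 or 2, and 4 without antibiotic library 3. The polymerase gene Rev1 kept its call, at 1.22-fold (adjusted p 0.00602). Of 25 genes of mRNA decay, 8 were higher and 1 lower, the latter (Cnot2) lost without water library 6 or antibiotic library 3. Xrn1, the exonuclease that degrades decapped mRNA, was 1.35-fold (23.8 to 31.2 against 33.6 to 40.3 CPM, adjusted p 0.0027), Dis3 1.43-fold (adjusted p 0.00127), Pan2 1.36-fold (adjusted p 0.0048) and Edc4 1.196-fold (adjusted p 0.000464).

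Cdkn1a, which encodes the cell cycle inhibitor p21 and is a target of p53, FoxO factors and the glucocorticoid receptor, measured 14.4, 22.8, 16.2, 20.7 and 17.6 CPM with water and 53.2, 38.8, 63.3, 45.1 and 33.9 CPM with antibiotics (2.54-fold, adjusted p 2.66e-06). Of 19 tested genes of p53, FoxO and fasting responses, 6 were higher and 1 lower. Mdm2, the p53 ubiquitin ligase, was 1.17-fold (adjusted p 0.00425) and Trp53inp1 1.48-fold (adjusted p 0.00239), whereas the p53 targets Bbc3 and Ccng1 did not pass. The lower gene, Phlda3, lost its call without water library 2, 3 or 6 or antibiotic library 1, 2, 4 or 5. Of 33 chromatin enzymes, 7 were higher and 3 lower, with 4 higher without water library 4, water library 6 or antibiotic library 4. Tet2, which oxidises methylated cytosine, was 1.46-fold (40.3 to 52.7 against 60.9 to 75.5 CPM, adjusted p 0.00053), Ezh2 1.51-fold (adjusted p 0.00466) and the maintenance methyltransferase Dnmt1 0.865-fold (adjusted p 0.00438).

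**Figure D3:**
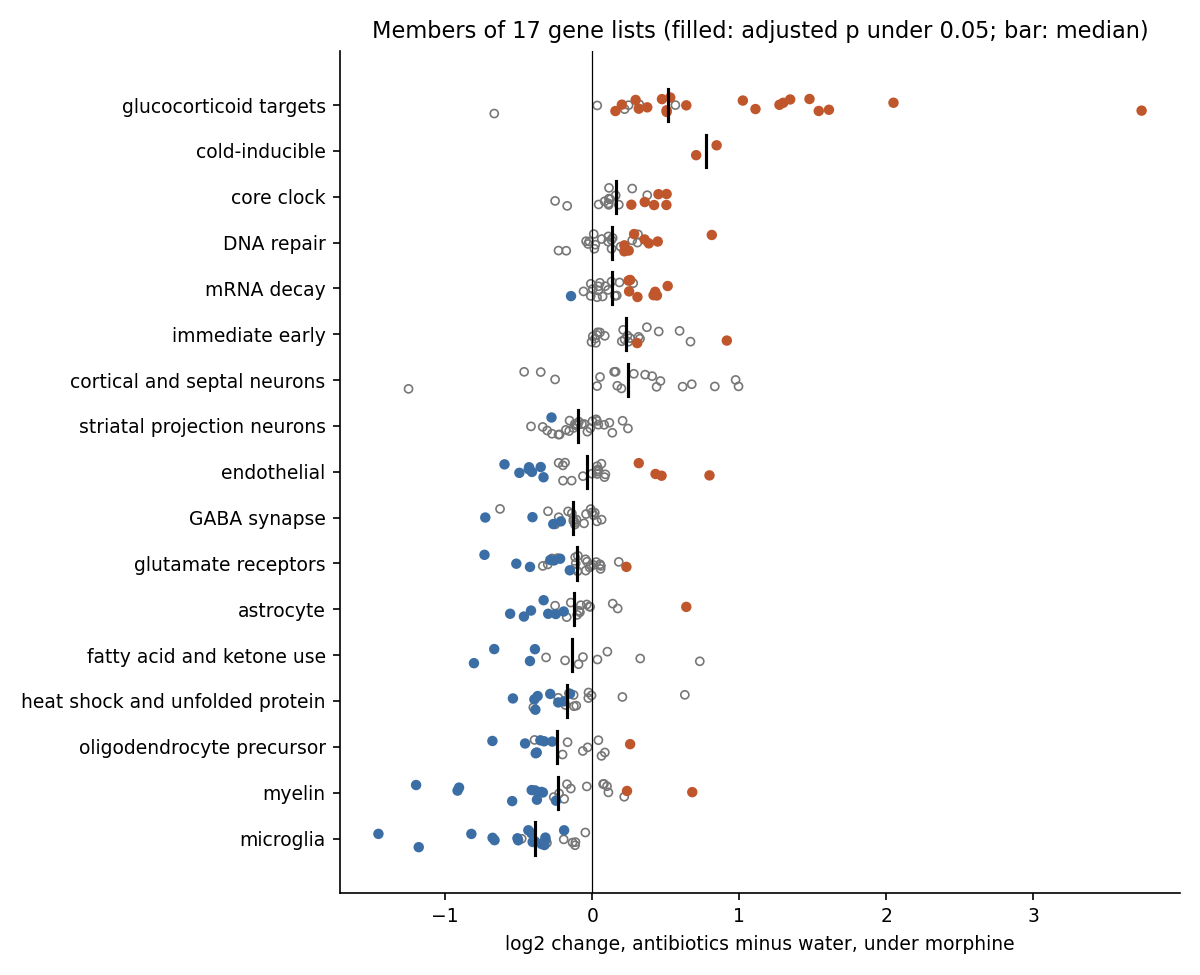
Log2 change with antibiotics under morphine (horizontal axis) of each tested member of 17 gene lists (rows), with filled points for an adjusted p under 0.05, open points for the rest and a bar at the median of each list. The glucocorticoid list has 20 filled points of 26 and all of them lie to the right of 0, and the microglial list has 16 of 23, all to the left.

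Fewer genes passed the same test under saline. There 205 genes (1.41%) differed between antibiotics and water, 79 higher (0.542%) and 126 lower (0.865%), of which 151 were also called under morphine, all with the same sign. These are 73.7% of the saline calls and 5.76% of the morphine calls. Of the 2621 genes called under morphine, 87.6% had the same sign under saline, against 67.9% of all genes tested. The median log2 change of the genes called higher was 0.31 under morphine and 0.11 under saline, and of those called lower −0.32 and −0.12. These genes were chosen by their morphine values, which favours the larger value there. Across the 14564 genes both changes correlated with a Pearson r of 0.464 (Spearman rho 0.469), as a description, since genes are not independent replicates. The saline count rested on single libraries more than the morphine count did. It was 409 without saline antibiotic library 1, and 48, 92 and 96 without saline antibiotic libraries 4, 5 and 6. Without saline water libraries 3, 4, 5, 8 and 9 it was 59, 136, 108, 131 and 118. The saline and morphine libraries also differed in technical measures. The slope of log2 CPM on transcript length was −0.0779 to 0.0476 under saline and 0.0254 to 0.0551 under morphine. Under saline only antibiotic library 6 lay above 0, and it had 15.4% of counts outside genes and Malat1 at 2463 CPM. The part of these measures in the saline count and in the differences below was not tested beyond the length covariate.

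The change itself differed between morphine and saline in 68 genes (0.467%), 32 with a higher (0.220%) and 36 with a lower value (0.247%) under morphine, and 67 of them were called under morphine. When 1 of the 22 libraries was left out this count ran from 28 to 100. It was 28, 42 and 41 without water and morphine libraries 2, 3 and 6, and 35 and 30 without antibiotic and morphine libraries 1 and 3. Without saline water libraries 3, 4, 5 and 6 it was 33, 45, 41 and 37, and without saline antibiotic library 1 it was 42. The 10 genes named next were called in all 22 such fits. Wnt10b measured 1.30 ± 0.355 CPM with water and 1.12 ± 0.234 CPM with antibiotics under saline (n = 6 each), so that its rise was 2.47 ± 0.301 log2 units greater under morphine (adjusted p 0.000313). Fabp7 measured 26.2 ± 2.35 and 22.01 ± 3.90 CPM under saline, and its change was 1.15 log2 units lower under morphine (difference −1.15 ± 0.160, adjusted p 0.00163). Cdkn1a measured 23.5 ± 2.76 and 24.9 ± 2.37 CPM under saline, and the difference was 1.26 ± 0.195 (adjusted p 0.00826). Its water libraries under morphine, at 18.3 ± 3.40 CPM, were below both saline groups on average.

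Pcolce2, an enhancer of procollagen cleavage, measured 4.22 ± 0.740 and 3.89 ± 0.782 CPM under saline but 3.05 ± 0.565 and 6.91 ± 0.867 CPM under morphine (difference 1.29 ± 0.217, adjusted p 0.00992). Dbndd2 was 236 ± 7.53 and 229 ± 14.0 CPM under saline and 209 ± 10.1 and 270 ± 15.1 CPM under morphine (difference 0.41 ± 0.0674). Stxbp4, Plxna3, Pycrl, Mtss1l and Tmco3 were lower with antibiotics under morphine and had saline log2 changes of −0.11, 0.18, −0.05, 0.03 and −0.09, with differences of −0.72, −0.71, −0.57, −0.47 and −0.40. Plxna3, a semaphorin receptor, stood at 41.4 ± 4.21 CPM in water and morphine libraries and at 28.4 to 33.5 CPM on average in the other 3 groups.

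Among the gene groups, 4 glucocorticoid genes had called differences: Cdkn1a, Map3k6, Arrdc2 and Fkbp5. Fkbp5 measured 64.8 ± 3.14 CPM with water and 81.1 ± 13.8 CPM with antibiotics under saline, and its rise was 0.79 ± 0.151 log2 units greater under morphine (adjusted p 0.0206). The call of Fkbp5 and that of Arrdc2 were each lost in 1 of the 22 fits (adjusted p up to 0.0528). Under saline 4 genes of that list were higher, against 20 under morphine, and the median log2 change was 0.31 against 0.52. In the microglial list 9 genes were lower under saline and 16 under morphine, and no member had a called difference. In the myelin list 16 were lower under saline and 11 under morphine. Cldn11, a tight junction protein of myelin, was lower with antibiotics under saline (193 ± 13.6 against 156 ± 14.2 CPM, adjusted p 0.00744) and not under morphine (168 ± 7.61 against 177 ± 6.71 CPM, adjusted p 0.434), with a called difference of 0.38 ± 0.0817 (adjusted p 0.0335). The difference in Cldn11 was called in only 11 of the 22 fits without 1 library (adjusted p up to 0.079). It was lost without water library 3, 4 or 6 or antibiotic library 3 of the saline groups, and without water library 2, 3, 5 or 6 or antibiotic library 1, 2 or 3 of the morphine groups. Mfsd2a rose more under morphine (difference 0.68 ± 0.128, adjusted p 0.0173).

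**Figure D4:**
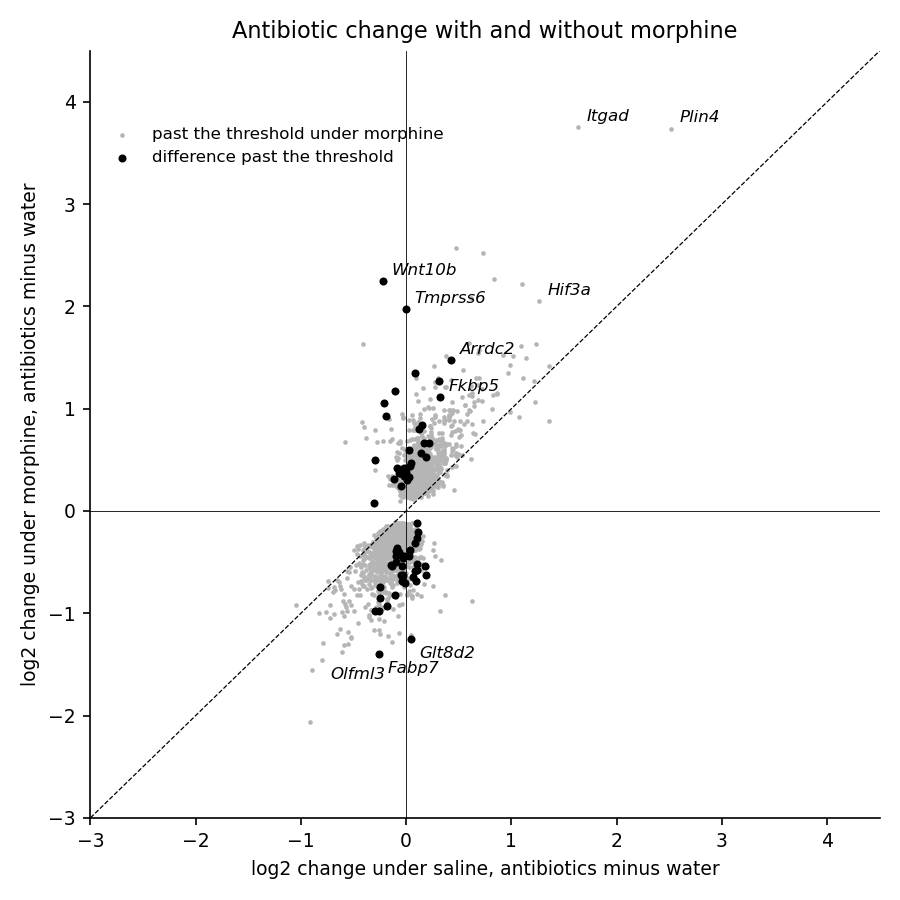
Log2 change with antibiotics against water under saline (horizontal axis) and under morphine (vertical axis), with a dashed diagonal of equal change. Grey points are genes called under morphine and black points the 68 genes whose changes differ, among which Wnt10b lies at −0.22 under saline and at 2.25 under morphine.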

How the data were processed

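RNA of the nucleus accumbens was sequenced from 22 libraries in 4 groups. A SMARTer kit is named in the labels, which list the molecule as polyA RNA but describe cDNA made from total RNA. The authors deposited raw read counts per gene, aligned with STAR 2.4.0 after FastQC checks, per the submitters' processing notes, which also name edgeR. No label or header states the strand setting, genome build, annotation or counter (not given in the sources used here). Overlapping, antisense and near-identical genes therefore cannot be told apart. A second deposited table holds a normalised signal and served only as a list of genes. Rows that name no gene took 20.6% to 26.4% of the counts and were left out, and 4053 of 24061 genes had no count. The table has 27 gene names turned into dates, of which 24 were tested, and they were not named.

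All 22 libraries entered 1 edgeR 4.0.16 model (R 4.3.3, limma 3.58.1) with a term per group, the filterByExpr filter, TMM scaling and the robust quasi-likelihood fit. The tests were two-sided, and p-values were adjusted over all 14564 genes. An SE is the log2 change divided by the square root of the F statistic, and fitted changes use the default prior count of edgeR. Log2 CPM for the principal components, the covariates and the pairing check used a prior count of 2. Library measures were compared by exact permutation (two-sided, 6 measures, smallest possible p 0.00794). DESeq2 1.42.0, limma-voom, other scalings and filters, the replicate number, 2 covariates and fits without 1 library were the alternatives. Pairs of libraries of a group differed by 3.34 to 22.7 times the sampling variance, so none was a duplicate.

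Genes and 39 gene lists were chosen with earlier results of these data known. The lists hold 816 distinct tested genes, 197 of them called, 24 genes stand in more than 1 list, and 4 were matched by a RefSeq synonym. Genes were named by rule: the 25 smallest p-values in each direction, called genes changed at least 2-fold, list members, Malat1, Gapdh and Actb, and the 10 smallest p-values of the difference, without clone, predicted or date names. Transcript lengths for the length covariate were found for 95.4% of the tested genes. Promoter sequences are from RefSeq, build GRCm38.p6. A few genes of these lists are not reported here by name.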

Additional observations from a re-analysis of the deposited data

Results flagged for a closer look

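Some libraries stood apart from the other 4 of their group by Dixon's criterion. This was so in 14 of 368 gene or measure groups examined (3.80%), and chance flags about 1 in 20 groups. Water library 4 was the extreme one for the cortical gene Slc17a7 (986 CPM, next 124) and for 3 opioid genes: Oprm1 (4.43 CPM, next 7.997), Pdyn (228 CPM, next 392) and Penk (838 CPM, next 1268). Water library 2 was the lowest for Flt1 (62.1 CPM, next 68.1) and Prodh (22.5 CPM, next 27.5).

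Antibiotic library 1 was the highest for Mbp (2672 CPM, next 2391) and Vcan (51.5 CPM, next 47.6) and the lowest for Plxna3 (22.3 CPM, next 28.6) and Xbp1 (59.2 CPM, next 72.2). Antibiotic library 2 was the highest for Ciart (40.2 CPM, next 34.2). Antibiotic library 3 was the highest for Mt1 (182 CPM, next 166). Antibiotic library 5 was the highest for P2ry13 (9.96 CPM, next 8.06). The noncoding RNA Malat1 stood at 1007 CPM in antibiotic library 4, with 492 CPM in the next, and the difference between groups did not pass an exact permutation test (529 ± 275 against 344 ± 114 CPM, n = 5 each, p 0.167, adjusted p 0.333).

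Some of the 177 genes given with values were named for their small p-values in edgeR's interaction test, which favours a high count here. Among all 14564 genes tested, 68 (0.467%) passed that test. The antibiotic change under morphine differed from that under saline in 24 of the 177 genes, by the same test. In log2 units, morphine minus saline, it was greater by 2.47 in Wnt10b, 1.97 in Tmprss6, 1.29 in Pcolce2, 1.26 in Cdkn1a, 1.05 in Arrdc2, 0.96 in Map3k6, 0.79 in Fkbp5 and 0.68 in Mfsd2a. Smaller positive differences were 0.50 in Prodh, 0.45 in Ncapd3, 0.41 in Dbndd2, 0.38 in Cldn11 and 0.34 in Igbp1. Negative differences were −1.15 in Fabp7, −0.72 in Stxbp4, −0.71 in Plxna3, −0.69 in Serpinh1, −0.57 in Pycrl and −0.50 in Tubb2b. The others were −0.47 in Mtss1l, −0.42 in Gpr17, −0.40 in Tmco3, −0.38 in Tufm and −0.32 in Dnmt1. Of the 22 fits without 1 library, Dnmt1 was called in 18, Tufm in 13, Gpr17 in 12, Cldn11 in 11, Tmprss6 in 8, Prodh and Igbp1 in 7, Tubb2b in 6, Ncapd3 in 5 and Serpinh1 in 4. Fkbp5 and Arrdc2 were called in 21 and the other 12 genes in all 22.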

How the results depend on the processing

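The count of 2621 genes under morphine was 1877 to 2748 when 1 library was left out. It was 277 against a 1.2-fold change and 583 with a replicate block in the 10 morphine libraries alone. With a replicate block over all groups it was 2003. With the cortical marker score as covariate it was 2956, of which 2151 were among the 2621. The labels do not say whether equal title numbers pair the libraries. The correlations of same-numbered libraries under morphine were −0.25, 0.12, 0.19 and −0.04 for numbers 2 to 5. So few values cannot settle whether the libraries are paired. In no setting did any of the 2621 genes change sign. The settings refit the libraries by which these genes were chosen, so this is no independent check. Of the genes called, 50.5% were higher when only genes of the authors' normalised table were used, against 46.8%.

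The saline count (205) was 412 with DESeq2, 105 with the replicate block, 46 with the length slope and 319 with the cortical marker score as covariate, 67 with the saline libraries alone, and 48 to 409 without 1 library. The count of differences (68) was 188 with DESeq2, 10 with the replicate block, 157 with the cortical marker score and 28 to 100 without 1 library. Leaving out libraries for the difference, and most settings for saline, were chosen after seeing the data. The cause of these shifts was not tested.

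Of 158 called genes printed with values, none reversed in any setting, and 164 of 1580 gene and library pairs lost the call, as did 228 of 2034 gene and setting pairs in the other settings. The log2 change of Penk (−0.01) was 0.0027 with limma-voom, 0.25 with the cortical marker score, 0.063 with the replicate block in the morphine libraries, and −0.12 to 0.034 without 1 library. Nr3c2 (−0.04) was 0.019 with the cortical marker score and −0.082 to 0.00085 without 1 library, and Gapdh (0.05) was −0.0017 with that block and −0.00013 to 0.079. The difference in counts per library (−97072, antibiotics minus water) ran from −898940 to 561125.

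Depth limits the scarce genes: Itgad rests on 14 counts in 5 water libraries. The labels do not state whether a library is 1 animal, which antibiotics were used or the hour of dissection.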

Other observations

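Several genes with small p-values under morphine belong to none of the groups described above. Igbp1, a regulator of protein phosphatase 2A, measured 30.0, 31.0, 31.7, 29.9 and 31.1 CPM in water libraries 2 to 6 and 48.6, 43.8, 47.5, 40.1 and 41.7 CPM in antibiotic libraries 1 to 5. The water libraries were nearly equal and all lay below the antibiotic libraries (edgeR's adjusted p 1.89e-06). Ncapd3, a subunit of condensin II, which shapes chromosomes, was 1.58-fold higher (edgeR's adjusted p 2.76e-06). Slc25a28, the iron importer of mitochondria, was 1.41-fold higher (36.7 to 44.6 against 27.5 to 32.4 CPM, adjusted p 2.01e-05). Scarcer transcripts rose by more: Tmprss6, a membrane protease known for its part in iron balance, had 53 and 209 counts (3.92-fold), Pmaip1, the BH3 protein Noxa, 30 and 94 (3.11-fold), and Ada, adenosine deaminase, was 2.86-fold.

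Among the lower genes, Car2, a carbonic anhydrase abundant in oligodendrocytes, measured 150 to 176 CPM with water and 94.4 to 123 CPM with antibiotics (0.680-fold, edgeR's adjusted p 2.26e-06). It was also lower under saline (log2 −0.30, adjusted p 0.00767). Unc5b, a netrin receptor, and Slc38a3, a glutamine transporter, were 0.589-fold and 0.666-fold (adjusted p 4.65e-06 for each), and both were also lower under saline (adjusted p 0.0036 and 0.0364). None of these 3 genes had overlapping groups under morphine.

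The remaining gene groups held few calls. Of 11 opioid peptide and receptor genes, Pcsk2, a convertase that matures neuropeptide precursors, was higher (276 to 379 against 387 to 452 CPM, edgeR's adjusted p 0.0181). It lost the call without water library 2 or 6 or antibiotic library 1 and with the cortical marker covariate (adjusted p 0.0559). Pdyn, the dynorphin precursor, did not pass (378 ± 86.9 against 283 ± 24.4 CPM, adjusted p 0.118) and was called lower without water library 4. Of 24 genes of dopamine and protein kinase A signalling, 4 were lower, Adcy3, Prkaca, Arrb1 and Gnal, at log2 changes of −0.19, −0.17, −0.13 and −0.28. That count was 2 without water library 2 or 6 or antibiotic library 4, 1 without water library 5, and 0 without water library 3 or antibiotic library 1 or 3. The 4 are 16.7% of the list, while 18.0% of all genes tested passed and 9.58% were lower. Of 11 pericyte and smooth muscle genes, 2 were lower, Cspg4 and Vtn, and Vtn lost the call without water library 3, 5 or 6 or antibiotic library 1, 3 or 4. Those 2 are 18.2% of the list, near the share of all genes tested that passed (18.0%). Of 7 choroid plexus and ependymal genes 0 passed by edgeR, DESeq2 or limma-voom, and 0 did at an unadjusted p under 0.05. Of 7 erythrocyte genes only Alas2 had enough counts to test, and it did not pass.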
